A study of Mus musculus with 6 samples.

Results

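Cish, Socs1 to Socs7 and Sh2b3 encode inhibitors that restrain cytokine signalling through JAK kinases and STAT factors. Their transcripts were measured by 26 probe sets of an Affymetrix mouse array, out of 35877 probe sets with a gene symbol, and represent 9 of 18193 genes. A member probe set was any whose platform annotation gave one of these 9 names as its only gene symbol. Socs2 had 6 probe sets, Socs4 and Socs7 had 4 each, Socs3 and Socs6 had 3 each, Socs5 and Sh2b3 had 2 each, and Cish and Socs1 had 1 each. The rule used the annotation and no measured value, but the 9 genes were chosen with earlier results of these data known.

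The samples were mouse bone marrow cells sorted as GFP positive, lineage negative, c-Kit positive and Sca-1 positive, the surface phenotype of haematopoietic stem and early progenitor cells. There were 3 groups of 2 arrays each. The vector group had been transduced with an empty vector carrying GFP, the BCR/ABL group expressed BCR/ABL (the fused tyrosine kinase that drives chronic myeloid leukaemia) and came from untreated leukaemic mice, and the third group expressed BCR/ABL and came from leukaemic mice given imatinib, a drug that inhibits that kinase. The labels give no mouse strain, age, drug dose or duration, and leave unsaid whether both arrays in a group represent different mice. The tests therefore measure the spread between these arrays alone, and that spread may be technical.

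In this pathway a cytokine receptor activates its bound JAK kinase, the kinase phosphorylates STAT proteins, and these enter the nucleus to switch on genes that include the inhibitors themselves. CIS, encoded by Cish, and SOCS2 are classical products of STAT5 activity and bind phosphorylated receptors through an SH2 domain. SOCS1 and SOCS3 also carry a short region that blocks JAK activity directly, and the SOCS box shared by all 8 of these proteins recruits an elongin and cullin ubiquitin ligase. Sh2b3, also called LNK, is an adaptor of another family that dampens JAK2, the thrombopoietin receptor and KIT in stem cells. BCR/ABL is known to activate STAT5 without cytokine.

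The promoter sequences of 3 members are shown because STAT proteins bind a short palindrome, TTCNNNGAA, whose letters read the same on both strands. Sequences came from a table of RefSeq promoters (build GRCm38.p6) that is not complete and held a window of 250 bases before to 50 bases after the start for 5 of the 9 genes, namely Cish, Socs1, Socs3, Socs4 and Sh2b3. Shown 5′ to 3′ are chr9:107296559-107296688 on the plus strand for Cish, chr11:117969417-117969546 on the minus strand for Socs3 and chr16:10785537-10785666 on the minus strand for Socs1, with matches to TTCNNNGAA in capitals.
Cish: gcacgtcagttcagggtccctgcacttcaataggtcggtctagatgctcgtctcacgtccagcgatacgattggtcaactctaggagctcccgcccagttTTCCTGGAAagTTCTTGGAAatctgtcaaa
Socs3: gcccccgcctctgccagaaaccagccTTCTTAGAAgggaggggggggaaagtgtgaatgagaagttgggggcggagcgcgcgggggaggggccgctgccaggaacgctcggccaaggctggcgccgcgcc
Socs1: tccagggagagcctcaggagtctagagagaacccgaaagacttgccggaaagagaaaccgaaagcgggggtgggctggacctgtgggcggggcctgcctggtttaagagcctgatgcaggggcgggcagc

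The Cish window held 2 matches, TTCCTGGAA at bases 1 to 9 and TTCTTGGAA at bases 12 to 20 counted from the annotated start. The Socs3 window held 1 match, TTCTTAGAA, ending 146 bases before the start. The windows of Socs1, Socs4 and Sh2b3 held 0. Of 32851 mouse promoters of the same length, 8.3% held at least 1 match and 0.457% held 2 or more. The variant preferred by STAT6, which has 1 more spacer base, was found in 0 of the 5 windows and in 6.95% of all promoters. These matches describe the letters only, and no binding was measured.

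Cish and Socs1 were highest in the untreated BCR/ABL arrays and lower with imatinib, Socs2 was higher in both BCR/ABL groups than in vector, and the brightest probe sets of the other 6 genes differed between groups by at most 0.66 on the log2 scale. No member probe set passed the test in any of the 3 comparisons. Limma (two-sided, Benjamini-Hochberg over all 35877 probe sets, threshold 0.05) called 0 of 26 in each. Over all probe sets it called 0.0613% for BCR/ABL against vector, 0% for imatinib against untreated BCR/ABL and 0.0446% for imatinib-treated BCR/ABL against vector. At an unadjusted p under 0.05, 6 member probe sets were higher and 0 lower in BCR/ABL than in vector, where 6.3% and 5.18% of all probe sets were. For imatinib against untreated BCR/ABL, 1 was higher and 2 were lower, where 6.26% and 8.34% of all were. The 1 higher was the dimmest Socs7 probe set, near the floor, with intensities from 0.567 to 10.9 on those arrays. For BCR/ABL with imatinib against vector, 7 member probe sets were higher and 0 lower, where 6.98% and 6.81% of all were. Most of the higher probe sets in both comparisons against vector were of Socs2. By the brightest probe set of each gene, 3 of 9 genes were higher without drug, where 12.7% of all 18193 genes differed in either direction. With imatinib, 2 of 9 were higher than vector, and the share over all genes was not counted for that comparison. What follows gives measured values with their intervals, not calls.

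**Figure D1:**
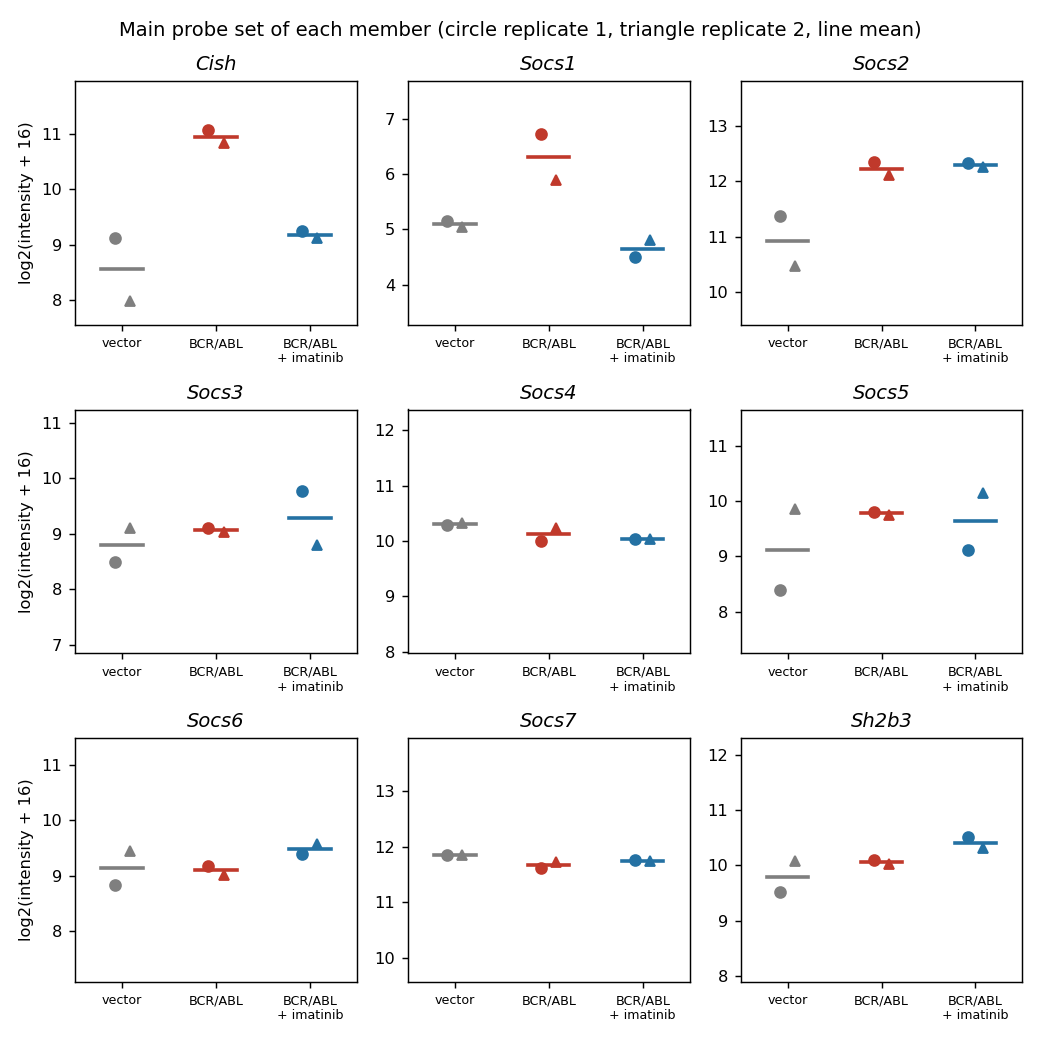
Levels of the 9 genes as log2(intensity + 16) after scaling between arrays, 1 point per array (circle replicate 1, triangle replicate 2) with the group mean as a line, each panel spanning the same height on the log2 scale. Cish and Socs1 peak in the untreated BCR/ABL arrays, Socs2 stays high in both BCR/ABL groups, and Socs4 and Socs7 lie nearly flat.

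Cish was the member with the widest spread between groups. Its deposited intensity was 545 and 228 on the vector arrays, 2183 and 1811 on the untreated BCR/ABL arrays, and 595 and 563 on the imatinib arrays. Both BCR/ABL arrays thus lay above every other array, and the imatinib arrays lay just above the higher vector array. On the log2 scale, after 16 was added to each value and arrays were scaled, the mean was 8.56 ± 0.80 (SD, n = 2) for vector, 10.95 ± 0.17 for untreated BCR/ABL and 9.18 ± 0.09 for imatinib. BCR/ABL minus vector was 2.39 (SE 0.37, 95% interval 1.49 to 3.29, adjusted p = 0.138), a 5.25-fold difference. Imatinib minus untreated BCR/ABL was -1.77 (SE 0.37, interval -2.67 to -0.87, adjusted p = 0.139). With imatinib, Cish was 0.62 above the vector mean on the log2 scale (interval -0.28 to 1.52), and those groups overlapped after scaling.

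The adjusted p of the Cish difference between BCR/ABL and vector varied with the processing, for causes that were not tested. It was 0.0343 and 0.0357 when only probe sets above the 30th and 50th percentiles of mean signal were tested, 0.00288 after centring on array medians and 0.0356 without vector replicate 1, where the difference was 2.98. It ranged up to 0.742 over all alternatives.

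Socs1, whose product blocks JAK kinases and limits interferon responses, was also highest in the untreated BCR/ABL arrays, at a dim signal. Its only probe set lay at the 37.9th percentile of mean level. Intensity was 18.7 and 17.0 on the vector arrays, 73.3 and 39.6 on the untreated BCR/ABL arrays, and 7.34 and 15.1 on the imatinib arrays. The 3 groups did not overlap, with the imatinib arrays lowest. BCR/ABL minus vector was 1.22 on the log2 scale (SE 0.36, interval 0.33 to 2.10, adjusted p = 0.337). Imatinib minus untreated BCR/ABL was -1.66 (SE 0.36, interval -2.55 to -0.78, adjusted p = 0.142). Vector and imatinib values lay close to the added constant, so these differences are compressed, and detection calls were not used here. With 1 as the constant the differences were 1.73 and -2.69.

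Socs2, a regulator of growth hormone signalling and a STAT5 product, was higher in BCR/ABL cells whether or not the mice had received imatinib. Its brightest probe set read 2622 and 1394 on the vector arrays, 5188 and 4460 on the untreated BCR/ABL arrays, and 5091 and 4714 on the imatinib arrays. The vector arrays lay below all 4 others, and both imatinib arrays lay between the 2 untreated BCR/ABL arrays. BCR/ABL minus vector was 1.30 (SE 0.28, adjusted p = 0.241) and BCR/ABL with imatinib minus vector was 1.37 (SE 0.28, adjusted p = 0.166). Imatinib minus untreated BCR/ABL was 0.07, with an interval from -0.61 to 0.75, and that interval holds differences of that size in either direction.

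The second brightest Socs2 probe set gave the smallest adjusted p of the family. It read 435 and 259 on the vector arrays, 1507 and 1744 on the untreated BCR/ABL arrays, and 1347 and 1600 on the imatinib arrays. BCR/ABL minus vector was 2.18 (SE 0.25, interval 1.58 to 2.78, adjusted p = 0.0751), a 4.53-fold difference. BCR/ABL with imatinib minus vector was 2.06 (SE 0.25, adjusted p = 0.103). With only probe sets above the 30th percentile tested, these adjusted p were 0.0148 and 0.0214. Imatinib minus untreated BCR/ABL was -0.12 (interval -0.72 to 0.48).

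All 6 Socs2 probe sets had their vector arrays below both BCR/ABL arrays and below both imatinib arrays after scaling. The other 4 were dim, between the 37.4th and 43.7th percentiles of mean level, with intensities from 2.17 to 33.3 in vector and from 21.4 to 93.4 in the BCR/ABL groups. Before scaling, 1 of them read 24.4 on vector replicate 1 and 21.4 on untreated BCR/ABL replicate 1, the reverse order. Their differences from vector ran from 0.57 to 1.89 without drug and from 0.90 to 1.71 with imatinib. Imatinib minus untreated BCR/ABL over the 6 probe sets lay between -0.17 and 0.33. Probe sets of 1 gene share its transcript and are not replicates of a condition.

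**Figure D2:**
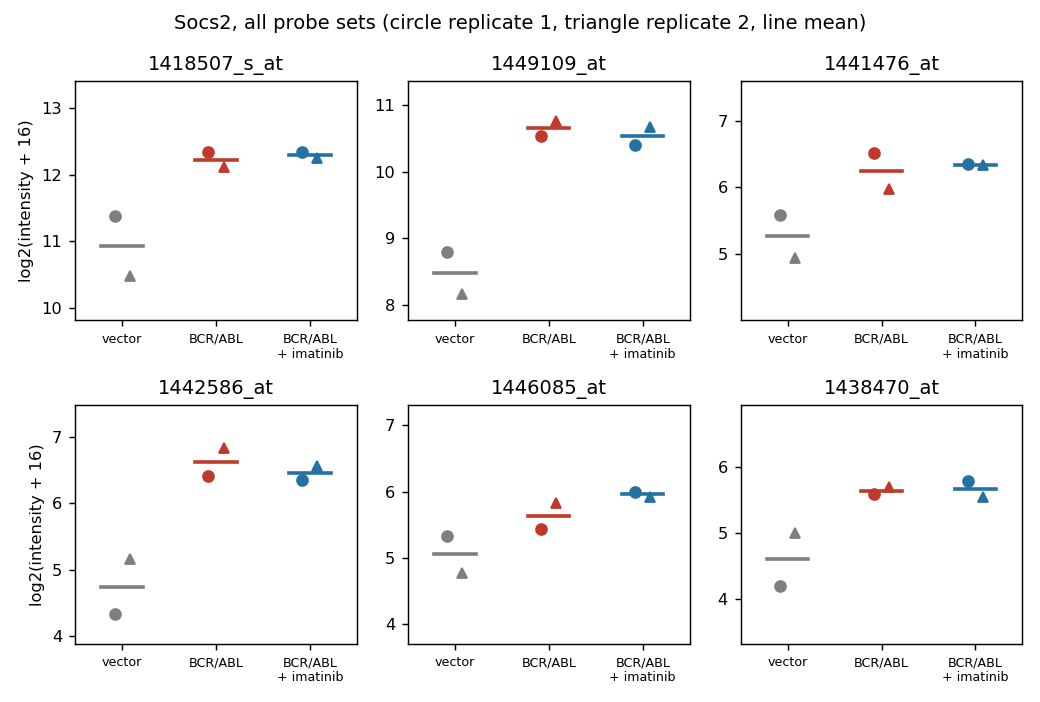
The 6 Socs2 probe sets, plotted as log2(intensity + 16) after scaling for each array (circle replicate 1, triangle replicate 2) with the group mean as a line. In each panel both vector arrays lie below the 4 BCR/ABL arrays, with and without imatinib.

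Cish and Socs2, both known STAT5 products, therefore had unlike values under imatinib, and a contrast chosen after their values were seen gives the size. Within each array, log2 Cish minus log2 Socs2 (main probe sets) was -2.24 and -2.49 on the vector arrays, -1.27 and -1.28 on the untreated BCR/ABL arrays, and -3.09 and -3.14 on the imatinib arrays. The difference between imatinib and untreated BCR/ABL was -1.84, against within-group SDs of 0.03 and 0.01. It is given as a description and no p-value is read from it, since the pair was picked for this difference and each SD rests on 2 arrays.

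Socs3, the inhibitor of receptors that use gp130 and of the G-CSF receptor, was spread wide within the vector and imatinib groups. Its untreated BCR/ABL arrays were close together. Its brightest probe set read 356 and 523 on the vector arrays, 524 and 501 on the untreated BCR/ABL arrays, and 862 and 456 on the imatinib arrays. The high value with imatinib came from replicate 1 and was seen on all 3 Socs3 probe sets. BCR/ABL minus vector was 0.27 (interval -0.65 to 1.18) and imatinib minus untreated BCR/ABL was 0.21 (interval -0.70 to 1.12). Without imatinib replicate 1 the latter was -0.27. The dimmest probe set read 30.4 and 85.9 in vector and 107 to 205 in the other arrays, a difference of 0.99 for BCR/ABL minus vector (adjusted p = 0.564). Of these probe sets, 2 carry the suffix x_at, which marks probes that can cross-hybridise.

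Socs4 and Socs5, which act on the EGF receptor and on interleukin-4 signalling, had intervals that spanned 0 on every probe set. The brightest Socs4 probe set read 1222 and 1256 on the vector arrays, 1023 and 1203 on the untreated BCR/ABL arrays, and 1038 and 1046 on the imatinib arrays, and BCR/ABL minus vector was -0.19 (interval -0.53 to 0.15). Its 4 probe sets split 2 above and 2 below 0 in that comparison. Socs5 read 331 and 890 on the vector arrays, 886 and 849 on the untreated BCR/ABL arrays, and 545 and 1121 on the imatinib arrays. Its 2 untreated BCR/ABL arrays were close together while the other groups were spread wide. The difference of 0.66 between BCR/ABL and vector had an interval from -0.66 to 1.98, and was -0.07 without vector replicate 1. The dimmer Socs5 probe set gave 0.74 for BCR/ABL minus vector (adjusted p = 0.614, overlapping arrays) and -0.62 for imatinib minus untreated BCR/ABL (adjusted p = 0.641), where the imatinib arrays were lower without overlap.

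Socs6, an adaptor that binds KIT, and Socs7 likewise had probe sets that disagreed in sign. The brightest Socs6 probe set read 447 and 664 on the vector arrays, 553 and 491 on the untreated BCR/ABL arrays, and 659 and 765 on the imatinib arrays, with -0.04 for BCR/ABL minus vector (interval -0.65 to 0.57). The other 2 Socs6 probe sets gave 0.56 and 0.61, with non-overlapping arrays (adjusted p = 0.439 and 0.584). The brightest Socs7 probe set had the narrowest span of group means in the family, with 3662 and 3751 on the vector arrays, 3188 and 3390 on the untreated BCR/ABL arrays, and 3422 and 3295 on the imatinib arrays. BCR/ABL minus vector was -0.18 (interval -0.39 to 0.02, adjusted p = 0.479). The dimmest Socs7 probe set read 1.18 and 0.567 on the untreated BCR/ABL arrays and 7.72 and 10.9 on the imatinib arrays, all under the added constant of 16.

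Sh2b3 had its highest values with imatinib. Its brightest probe set read 713 and 1047 on the vector arrays, 1088 and 1033 on the untreated BCR/ABL arrays, and 1443 and 1246 on the imatinib arrays. The imatinib arrays lay above all 4 others, and the vector and BCR/ABL groups overlapped. BCR/ABL with imatinib minus vector was 0.61 (SE 0.21, interval 0.10 to 1.13, adjusted p = 0.303), and imatinib minus untreated BCR/ABL was 0.35 (interval -0.17 to 0.87). The dimmer Sh2b3 probe set gave 0.00 and -0.33 for these comparisons, so the pattern rests on the brighter one.

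**Figure D3:**
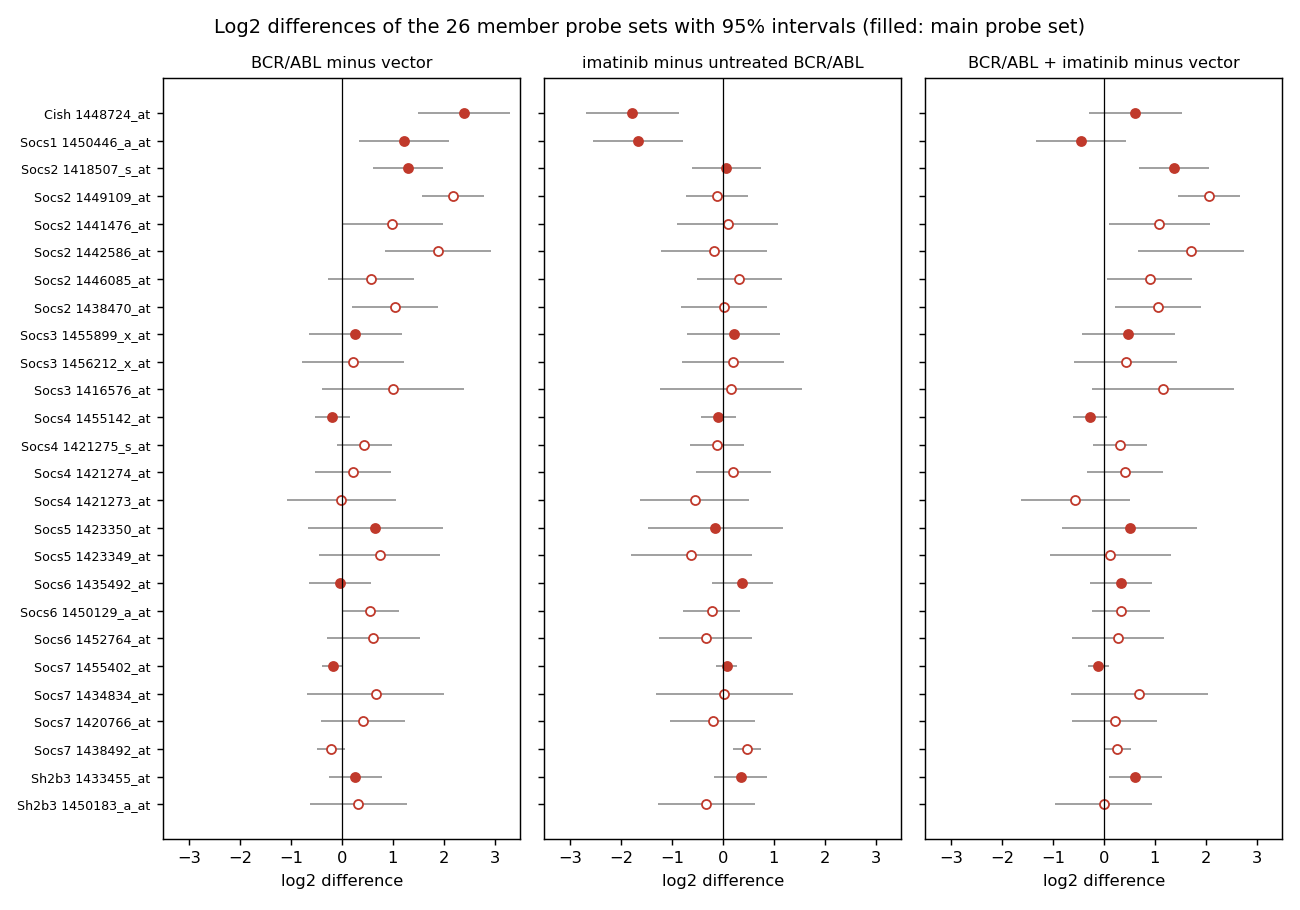
Log2 differences of the 26 member probe sets in the 3 comparisons, with 95% intervals from limma as horizontal lines, filled points for the brightest probe set of each gene and open points for the others. Cish, Socs1 and 4 of the 6 Socs2 probe sets have intervals above 0 for BCR/ABL minus vector, while with imatinib minus untreated BCR/ABL those of Cish and Socs1 lie below 0 and the Socs2 intervals all span 0.

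Counted together, 21 of the 26 probe sets had BCR/ABL minus vector above 0, with a median of 0.57, against 52.7% and a median of 0.02 over all probe sets tested. By the brightest probe set of each gene, 6 of 9 were above 0, with a median of 0.27, against 52.5% and a median of 0.01 over all 18193 genes. The arrays of the groups did not overlap for 14 member probe sets that were higher and 3 that were lower, where 23.5% and 19.7% of all probe sets did so in those directions. For imatinib minus untreated BCR/ABL, 13 of 26 were above 0, where 47.6% of all probe sets were, and the median was -0.03. There, 5 were higher without overlap and 5 lower, against 22.5% and 27% of all probe sets. For BCR/ABL with imatinib minus vector, 21 of 26 were above 0, where 48.5% of all were, with 13 higher and 4 lower without overlap, against 19.7% and 22.4%. The 6 Socs2 probe sets weigh on the counts against vector, and the comparisons share arrays.

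The signalling machinery that these inhibitors act on was described by gene lists, each gene taken by its brightest probe set, and 0 members of these lists passed the test in any comparison. At an unadjusted p under 0.05, BCR/ABL differed from vector for 0 of 10 JAK and STAT genes, 7 of 17 receptors, 0 of 6 SOCS box partners, 5 of 16 other negative regulators, 7 of 11 STAT5 targets and 1 of 8 STAT3 targets. For imatinib against untreated BCR/ABL the counts in that order were 4, 5, 3, 4, 6 and 0. Over all 18193 genes, 12.7% and 17% did so in these comparisons. The lists are short and were chosen with earlier results of these data known, so the counts are a description only. Of the 10 JAK and STAT genes measured, the range of BCR/ABL minus vector was -0.76 to 0.23, with a median of -0.04. With imatinib, 9 of 10 were above the untreated BCR/ABL mean, with a median of 0.29 against -0.01 over all genes. Jak2, the kinase of the thrombopoietin and erythropoietin receptors, gave 0.43 (adjusted p = 0.208), Stat4 gave 0.74 (adjusted p = 0.208) and Stat3 gave 0.58 (adjusted p = 0.246). Stat5a and Stat5b, which are upstream of Cish, gave -0.13 and -0.01 for BCR/ABL minus vector. For imatinib minus untreated BCR/ABL they gave 0.21 and 0.49. They are given here after their values were seen, because of that role. Jak1 and Tyk2 gave 0.23 and -0.31 for BCR/ABL minus vector, and Stat2 gave -0.76 (adjusted p = 0.497).

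Among 17 cytokine receptor genes, BCR/ABL minus vector had a median of -0.06, with 7 above 0 and 10 below. Il6st, which encodes gp130, the receptor chain that SOCS3 binds, gave -1.51 (adjusted p = 0.219). Its log2 level was 10.34 and 10.41 in vector and 8.83 and 8.89 in BCR/ABL. Il7r, a lymphoid receptor, gave -1.85 (adjusted p = 0.289) and 2.05 with imatinib (adjusted p = 0.146). Csf2rb, the shared chain of the GM-CSF and interleukin-3 receptors, gave 0.72 (adjusted p = 0.308). Il6ra and Ifngr1 gave 0.87 and 0.71 for imatinib minus untreated BCR/ABL (adjusted p = 0.168 and 0.240).

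The ubiquitin ligase partners of the SOCS box stayed within 0.28 of vector in BCR/ABL cells, and 5 of 6 lay below the untreated mean with imatinib, with a median of -0.37. Elob and Eloc, the elongins that bind the SOCS box, gave -0.32 and -0.41 (adjusted p = 0.141 and 0.233), Cul5, the cullin of SOCS ligases, gave -0.64 (adjusted p = 0.378) and Cul2 gave -0.43 (adjusted p = 0.237). Rnf7, the ring protein that pairs with Cul5, gave -0.05. Other negative regulators had no shared direction, with 8 of 16 above 0 in BCR/ABL minus vector and 9 of 16 with imatinib. Cblb, a ubiquitin ligase for tyrosine kinases, gave -0.63 and then 0.95 with imatinib (adjusted p = 0.290 and 0.120). Inpp5d, which encodes the phosphatase SHIP1, gave -0.27 and 0.53, and Ptprc, which encodes CD45, gave -0.33 and 0.41. Dok2, an adaptor that damps kinase signalling, gave 0.90 and -0.50, and Pias1 gave -0.49 and 0.26.

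Other STAT5 target genes were compared with the members because Cish and Socs2 belong to that class. Over 11 genes, BCR/ABL minus vector had a median of 0.35, with 7 above 0 and 4 below. For imatinib minus untreated BCR/ABL the median was -0.28, with 4 above 0 and 7 below. Osm, which encodes the cytokine oncostatin M, had log2 levels of 7.89 and 7.72 on the vector arrays, 11.28 and 10.66 on the untreated BCR/ABL arrays, and 9.25 and 8.60 on the imatinib arrays. Its differences were 3.16 (adjusted p = 0.0705) and -2.04 (adjusted p = 0.108). Id1, an inhibitor of differentiation factors, gave 1.88 and -1.73 (adjusted p = 0.129 and 0.117). Bcl6, a repressor that STAT5 holds down, gave -1.32 and 1.55 (adjusted p = 0.165 and 0.108).

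**Figure D4:**
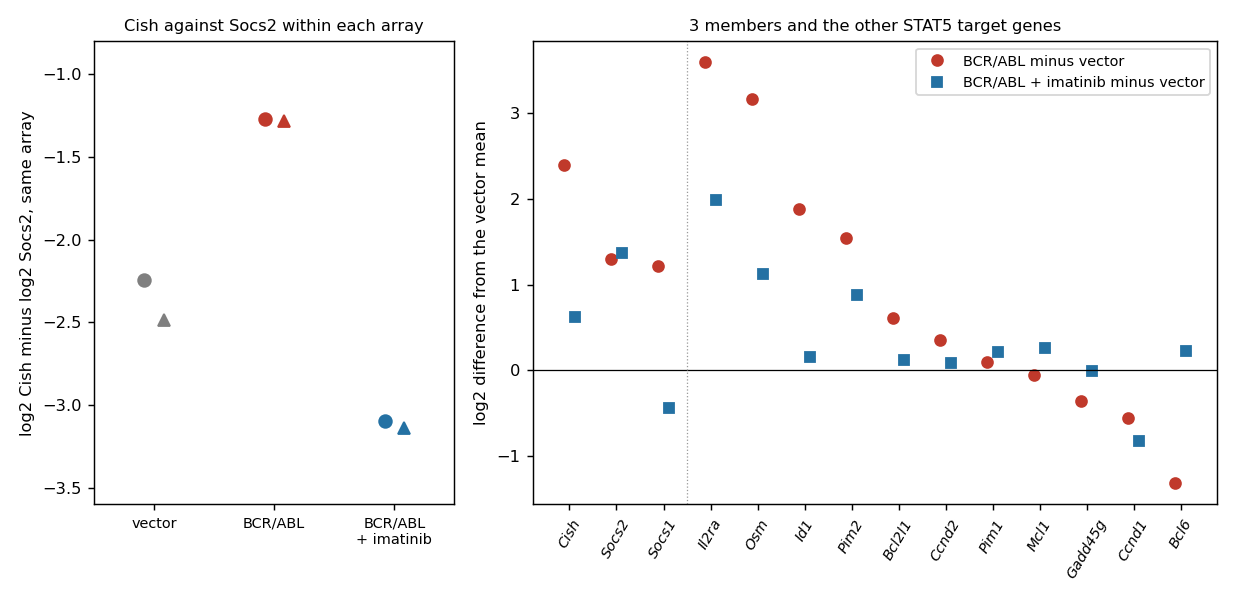
Left, log2 Cish minus log2 Socs2 within each array (circle replicate 1, triangle replicate 2), lowest with imatinib at -3.09 and -3.14. Right, difference of the group mean from vector on the log2 scale for 3 members and 11 other STAT5 target genes, without drug (circles) and with imatinib (squares), where the square of Cish lies at 0.62 and that of Socs2 beside its circle.

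Targets of STAT3, a factor that drives Socs3 in other settings, were also listed. Of 8 STAT3 target genes, 5 were above 0 in BCR/ABL minus vector with a median of 0.05. Il4ra gave 0.75, Cebpb 1.01, Fos -0.92 and Myc 0.10.

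Genes whose profile over the 6 arrays was most like that of the 2 members with the widest spread of group means were found among genes above the median level whose group means spanned at least 1 log2 unit. For Cish, with 1093 candidates, these were Lipg, which encodes endothelial lipase (Pearson r = 0.977), F2rl2, a thrombin receptor relative (0.970), P2ry1, an ADP receptor (0.961), Tnfrsf18, which encodes GITR (0.961), and Phlda1 (0.953). For Socs1, with 1094 candidates, they were Ifi27l2b (0.965), Tnfsf11, which encodes RANK ligand (0.945), Kcnk5, a potassium channel (0.945), Fam118b (0.934) and Tars (0.930). The correlations are over 6 arrays that share 3 groups, and with that many candidates values of this size are a description only.

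The arrays also differed in markers of other cells. Summed intensity of 11 of 12 mast cell and basophil markers was 16816 and 11472 on the vector arrays, 45248 and 44379 on the untreated BCR/ABL arrays, and 68915 and 58257 on the imatinib arrays. That of 10 of 11 B cell markers was 23409 and 4932, then 1310 and 2430, then 690 and 1800. That of 6 of 8 megakaryocyte and platelet markers was 1812 and 1962 on the vector arrays, 3805 and 3209 without drug, and 6881 and 6557 with imatinib. The mast cell and the megakaryocyte sums, like Socs2, were higher on all 4 BCR/ABL arrays than on the vector arrays. Granulocyte sums were 70363 and 39806 on the vector arrays, 68034 and 78093 without drug, and 74973 and 79073 with imatinib. Those of vector and untreated BCR/ABL overlapped, while both imatinib sums lay above both vector sums. Gene by gene, 6 of 10 granulocyte markers were higher than vector without overlap in each of the comparisons, and 0 were lower. The 6 genes were not all the same in the untreated and imatinib groups. Of all probe sets, 23.5% without drug and 19.7% with imatinib were higher than vector without overlap. Tpsab1 was at or near 0 in vector, and Pax5 was at or near 0 among B cell markers on every array. Kit, one of the 2 sorting markers, read 1637 and 2125 on the vector arrays, 1332 and 1116 on the untreated BCR/ABL arrays, and 2659 and 2602 on the imatinib arrays, and Ly6a, which encodes Sca-1, was not analysed here. The part of cell makeup in the values of Socs2, Cish or the other members was not tested. In sorted populations measured in bulk, more cells that express a gene and more RNA per cell cannot be told apart.

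The vector replicates correlated at 0.971 and differed by more than 2-fold at 3694 probe sets, against 860 in BCR/ABL and 1611 with imatinib. Among the members, 5 probe sets differed by more than 2-fold between the vector replicates after scaling, namely that of Cish, both of Socs5, the dimmest of Socs3 and 1 of Socs7. Without vector replicate 2, Cish minus vector was 1.81 and Socs2 was 0.85, and without vector replicate 1 they were 2.98 and 1.74. For beta-actin, signal of the 3-prime over the 5-prime probe set ran from 1.30 to 1.81 and was lowest in the 2 untreated BCR/ABL arrays.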

How the data were processed

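The deposited table holds 1 linear intensity per probe set and array, 45101 probe sets on 6 arrays, which came from Affymetrix Expression Console and MAS5 per the submitters' processing notes. Their versions were not given in the sources used here. Each array had a trimmed mean of 500. The probe sets belong to the Mouse Genome 430 2.0 array, whereas the series' design text names a whole-transcript array, so the labelling method is unsettled.

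After 64 controls were left out, values were taken as log2(value + 16). The array medians, 5.69 to 6.19, differed by more than 0.1, so arrays were quantile normalized. Groups came from the sample titles. One limma model (limma 3.58.1, R 4.3.3, lmFit, eBayes with trend) covered all 6 arrays, with 3 residual degrees of freedom, and its adjusted p are over 35877 probe sets of each comparison. A gene's main probe set is its brightest on average. The number of arrays limits the precision. The code was tested on simulated data. The members and lists were chosen with earlier results of these data known. Listed genes named are the 3 with the smallest p for BCR/ABL against vector and the 3 for imatinib against untreated BCR/ABL. A planned protein comparison was not made, as no protein sequences were used here. One further gene list is not reported here.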

Additional observations from a re-analysis of the deposited data

How the results depend on the processing

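For the named probe sets, 494 of 534 alternative values kept the sign and side of the threshold, 16 passed it and 24 changed sign. The causes were not tested. After centring on array medians, the median of all probe sets was 0.20, -0.27 and -0.09 (BCR/ABL against vector, then imatinib against untreated, then imatinib against vector). Cish was then called at 2.65 and -2.08 (2.45 and -1.81 relative to those medians), and Socs1 at -1.72 (-1.45 relative to its median). The calls were made without subtracting those medians. Socs2 was called at 1.54 and 1.23 against vector.

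The 22 calls of BCR/ABL against vector became 83 with a constant of 1, 298 with array medians, 189 and 132 above the 30th and 50th percentiles, 0 without the trend, 42 with a robust prior and 0 to 38 with 1 array left out (38 and 2 without vector replicate 1 or 2, 0 without either BCR/ABL array). The 16 of imatinib against vector became 78, 275 (201 higher, against 15 of 16), 188, 181, 0, 28 and 0 to 50 in the same order, 3 with a constant of 64 and 0 with only 4 arrays. For imatinib against untreated BCR/ABL, limma made 0 calls (5238 at an unadjusted p under 0.05), which became 3, 1200, 142 and 211 for the constant of 1, array medians and percentile filters. Member probe sets called against vector became 1, 3, 2 and 2 under those 4 settings without drug (0 to 1 with 1 array left out) and 1, 2, 1 and 1 with imatinib. Array medians called 2 for imatinib against untreated BCR/ABL.

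Signs turned for the following. With array medians these were Socs2 (-0.302), Socs3 (-0.0424) and Socs7 (-0.298) for imatinib against untreated BCR/ABL, and Socs4 (0.0545), Socs6 (0.15) and Socs7 (0.0397) for BCR/ABL against vector. Relative to the median of all probe sets, Socs2 and Socs7 under imatinib still turned (-0.03 each) and the other 4 did not. With probe sets of a gene averaged, Socs4, Socs6 and Socs7 gave 0.11, 0.38 and 0.17 for BCR/ABL against vector, Socs6 gave -0.0563 for imatinib against untreated BCR/ABL and Socs7 gave 0.26 for imatinib against vector. With 1 array left out, BCR/ABL against vector ran from -0.014 to 0.538 for Sh2b3, -0.038 to 0.57 for Socs3, -0.0741 to 1.39 for Socs5 and -0.35 to 0.26 for Socs6. Imatinib against untreated BCR/ABL ran from -0.0464 to 0.187 for Socs2, -0.255 to 0.0202 for the second Socs2 probe set, -0.27 to 0.70 for Socs3, -0.203 to 0.0331 for Socs4 and -0.67 to 0.37 for Socs5. Imatinib against vector ran from -0.00131 to 0.974 for Socs3 and -0.22 to 1.24 for Socs5.

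With the replicate number as a block (replicate block), calls numbered 22, 0 and 9, with 0 member probe sets in each. Deviations of same-numbered arrays correlated at -0.08, 0.16 and 0.15 between pairs of groups, so the numbers were not taken as pairs.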
